A study of Mus musculus with 2 samples.

Results

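Prap1, Lcn2, Ltf, Clca1, Muc1 and Greb1, 6 genes that estrogen is known to induce in the uterus or in cells that respond to estrogen, were read in uterine stromal cells with and without the transcription factor Hand2. They were taken by name from the platform annotation, with every probe set that lists exactly 1 gene symbol, which gave 11 probe sets of the 6 genes among 18193 genes on the array. Prap1, Lcn2, Ltf and Clca1 encode secreted proteins. Muc1 encodes a mucin that is anchored in the cell membrane, and Greb1 encodes an intracellular protein. Krt8, Cdh1 and Epcam, a keratin and a pair of adhesion molecules found throughout simple epithelia, were read beside them as a measure of epithelial content. The 6 genes were selected on their names with their ratios in this same comparison known, so their values are given as a description and no test is attached to them.

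RNA came from uterine stromal cells on day 4 of pregnancy, with the day of the vaginal plug counted as day 1 after mating to fertile males. The control array carried RNA of mice labelled Hand2 Floxed, and the other array RNA of mice labelled Hand2-null, made by crossing floxed mice with PRcre mice. In PRcre mice the progesterone receptor locus drives Cre recombinase, and that locus is active in the epithelium and smooth muscle of the uterus as well as in its stroma. Both groups are labelled as a mixed C57BL/6 and SV129 background with Prcre listed, and the labels do not state whether the floxed controls carried the Cre allele. The ages of the mice were not used here. The series design gives 5 mice per genotype and the extraction protocol 4, and the RNA was pooled by genotype, so there was 1 array per genotype, no replicate and no p-value. In the isolation, epithelial clumps were loosened enzymatically and discarded, and the remaining tissue was digested, filtered and left to attach to plates before loose cells were removed.

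On day 4 of pregnancy in the mouse, a small rise of ovarian estrogen acts on a uterus already under progesterone, and the epithelium becomes receptive to the embryo. Estrogen acts through its receptor Esr1, in the epithelium directly and by way of signals from the stroma, and drives the epithelium to divide and to secrete. Progesterone restrains both responses, and stromal Hand2 is known as part of that restraint. Ltf and Muc1 are classical epithelial readouts of this balance in the mouse uterus.

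Signals are Microarray Suite 5 (MAS5) values in arbitrary linear units, scaled to the same trimmed mean in both pools. A detection floor was set at the 60th percentile of each array, 64.2 in the control and 67.5 in the Hand2-null pool, and 10371 genes reached it in at least 1 pool. Log2 ratios are Hand2-null over control with dimmer values raised to the floor, so that a fold is a lower bound when 1 pool had to be raised. Probe sets of the same gene differed in log2 ratio with a pooled SD of 0.19 over 3665 genes, from 0.23 in the dimmest to 0.15 in the brightest quartile. This SD is used below only as a yardstick and is no replicate error. It holds no variation between mice, pools, cell isolations or arrays, which all probe sets of a gene share. Hand2 itself had signals of 1545 and 38.5 by its bright probe set, the second under the floor, a drop of at least 22.9-fold that matches the labels. Both other probe sets of Hand2 were under the floor in both pools.

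Signals of 5 of the 6 genes were at least 2-fold above the control in the Hand2-null pool, and 0 were at least 2-fold below it. Of all measured genes 1.99% lay at least 2-fold above and 0.742% at least 2-fold below. At 3-fold the 6 gave 2 above and 0 below, beside 0.472% and 0.193% of all measured genes, and at any size 6 of the 6 lay above, beside 44.2%. Nothing is read from these shares, since the 6 were chosen by their names with the Hand2-null over control ratio of several of them in view. The median log2 ratio of the 6 was 1.49, against -0.03 over all measured genes. Prap1 differed most and Muc1 least. In pooled RNA, fewer cells of a type and less RNA per cell cannot be told apart, and the cells that held these transcripts are not known from these arrays.

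**Figure D1:**
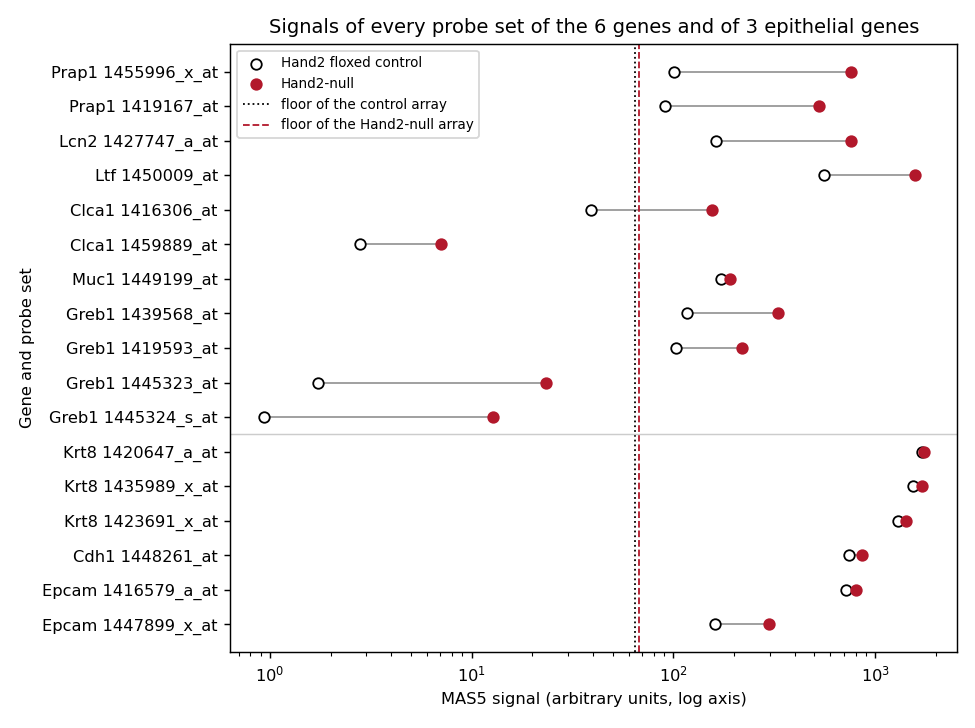
MAS5 signal on a log axis of each of the 11 probe sets of the 6 genes and the 6 probe sets of Krt8, Cdh1 and Epcam, open circles for the Hand2 floxed control array and filled circles for the Hand2-null pool, 1 array each, with the floor of each array as a vertical line. The Hand2-null signal lies to the right of the control signal in every row shown, by the least for Muc1 and the keratin Krt8 among the 6 genes and the reference genes.

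Prap1 encodes a proline-rich acidic protein secreted by the pregnant uterine epithelium and the intestine. Its brighter probe set, 1455996_x_at, had signals of 101 for the control and 762 for Hand2-null, a log2 ratio of 2.91 or 7.54-fold. Its other probe set, 1419167_at, had 91.3 and 524, a log2 ratio of 2.52 or 5.74-fold. Both probe sets were above the floor in both pools, both control signals were close to the floor, and the higher ratio came from the probe set whose suffix marks possible cross-hybridization. By its brighter probe set Prap1 had the highest ratio of the 9660 genes above the floor in both pools, followed by Myom1, a protein of the sarcomere, at 2.84.

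Lcn2 encodes lipocalin-2, which binds bacterial siderophores and so withholds iron from bacteria. Its single probe set had signals of 162 and 758, control first, a log2 ratio of 2.22 or 4.67-fold. Both signals were clear of the floor. Lcn2 held place 5 in that order, next to Hspb7, a muscle chaperone, at 2.32 and the cytokine Il17a at 2.22.

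Ltf encodes lactotransferrin, an iron-binding protein of uterine fluid and milk and a long-used marker of estrogen action on the mouse uterine epithelium. Its single probe set had 559 and 1566, a log2 ratio of 1.49 or 2.80-fold. It was the gene of the 6 with the largest difference in signal, 1007 units, while its ratio was smaller than those of Prap1 and Lcn2. Its neighbours in the order of ratios were Fndc1 at 1.49 and Mmp17, a membrane-bound matrix metalloproteinase, at 1.48.

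Clca1 encodes a secreted protein of mucus-producing cells that modulates calcium-activated chloride conductance. Its brighter probe set had 39.2 in the control pool, under the floor, and 155 in the Hand2-null pool, which is at least 2.42-fold higher. Its other probe set, at 2.80 and 7.03, was under the floor in both pools and gives no fold. The call on Clca1 thus rests on 1 probe set in 1 array, and with the floor at the 75th percentile the gene was no longer measured.

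Muc1 encodes a transmembrane mucin of the apical surface, whose level in the mouse uterus falls toward implantation. Its single probe set had 173 and 190, a log2 ratio of 0.14 or 1.10-fold. This difference is smaller than the pooled SD of 0.19 between probe sets of a gene. It lay among the bulk of measured genes, with 73.2% of them below it, between Mrs2, a mitochondrial magnesium channel, and Ubr4, a ubiquitin ligase, both at 0.14.

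Greb1 encodes an intracellular cofactor of the estrogen receptor and is among the genes that estrogen induces most directly in breast cancer cells. Its brightest probe set, 1439568_at, had 117 and 331, a log2 ratio of 1.499 or 2.83-fold. The second, 1419593_at, had 103 and 218, a log2 ratio of 1.08 or 2.11-fold. The remaining pair, at 1.74 and 23.4 and at 0.931 and 12.8, stayed under the floor in both pools, so that no fold is given. Greb1 stood between Reln, the matrix protein reelin, and Fndc1 at 1.49.

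In the order of ratios Prap1 stood above Lcn2 by either of its probe sets, at 2.91 and 2.52 against 2.22. Both genes came to 2.22 with the floor at the 75th percentile, where the control signals are bounds. The pooled SD of 0.19 describes single ratios within a gene and not a gap between genes, so it does not settle this order. Greb1 and Ltf could not be ordered, since their ratios differed by less than even that SD, and the second probe set of Greb1 lay below Ltf. The place of Clca1 is a bound, and without replicate arrays none of these places has an error attached. All 11 probe sets of the 6 genes had a higher raw signal in the Hand2-null pool, 8 of them reached the floor, and 7 of those 8 were at least 2-fold higher, the exception being Muc1.

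**Figure D2:**
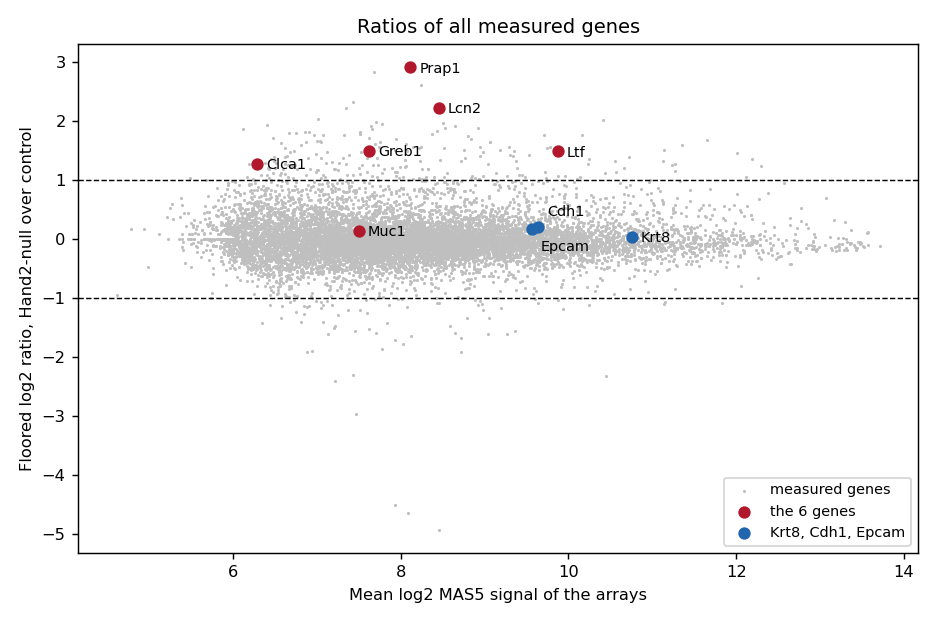
Floored log2 ratio of Hand2-null over control against the mean log2 signal of the arrays for each of 10371 measured genes (grey), with the 6 genes in red and Krt8, Cdh1 and Epcam in blue, 1 probe set per gene, and dashed lines at 2-fold. Prap1 at 2.91 lies at the top of the plot, Lcn2, Greb1, Ltf and Clca1 lie above the upper line, and Muc1 at 0.14 lies among the bulk with the 3 epithelial genes.

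The sequence just upstream of the transcription start was set beside these values, because most of the 6 genes were higher together. RefSeq promoters of build GRCm38.p6 were found for 5 of the 6 genes, all but Clca1, and the 250 bases before the start were searched. The sequences of the 4 higher genes with a promoter and of Muc1 follow, read 5′ to 3′ on the strand of the gene, with each GGTCA or its reverse complement TGACC, the half-site of an estrogen response element, in capitals. For Greb1, which has 2 listed starts, the one shown is the upstream of the pair.
Prap1: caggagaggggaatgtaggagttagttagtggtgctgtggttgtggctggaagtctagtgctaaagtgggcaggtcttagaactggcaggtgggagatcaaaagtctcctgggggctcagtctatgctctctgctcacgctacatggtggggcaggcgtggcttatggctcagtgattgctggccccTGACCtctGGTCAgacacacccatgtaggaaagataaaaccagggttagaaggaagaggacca
Ltf: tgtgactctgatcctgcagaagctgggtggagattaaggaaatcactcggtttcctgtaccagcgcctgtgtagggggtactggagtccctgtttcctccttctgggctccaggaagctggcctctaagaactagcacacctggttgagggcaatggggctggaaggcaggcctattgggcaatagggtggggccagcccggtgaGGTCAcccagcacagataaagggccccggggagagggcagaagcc
Greb1: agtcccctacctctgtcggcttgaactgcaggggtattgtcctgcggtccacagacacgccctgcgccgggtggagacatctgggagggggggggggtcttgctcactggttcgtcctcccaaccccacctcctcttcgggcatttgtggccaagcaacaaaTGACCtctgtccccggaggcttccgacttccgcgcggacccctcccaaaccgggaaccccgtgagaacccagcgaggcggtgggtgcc
Lcn2: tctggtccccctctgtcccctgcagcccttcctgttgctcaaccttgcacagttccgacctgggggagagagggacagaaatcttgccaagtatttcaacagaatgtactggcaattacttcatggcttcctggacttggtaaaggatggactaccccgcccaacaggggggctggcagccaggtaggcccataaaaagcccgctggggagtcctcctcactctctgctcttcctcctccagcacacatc
Muc1: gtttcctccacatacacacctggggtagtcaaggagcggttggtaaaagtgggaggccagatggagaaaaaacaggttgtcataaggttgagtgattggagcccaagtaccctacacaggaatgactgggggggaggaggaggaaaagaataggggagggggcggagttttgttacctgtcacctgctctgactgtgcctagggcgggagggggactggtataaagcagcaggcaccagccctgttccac
The windows are chr7:140093146-140093395 on the plus strand for Prap1, chr9:111019042-111019291 on the plus strand for Ltf, chr12:16800887-16801136 on the minus strand for Greb1, chr2:32387740-32387989 on the minus strand for Lcn2 and chr3:89228806-89229055 on the plus strand for Muc1.

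The palindromic estrogen response element GGTCANNNTGACC was found in 0 of the 6 windows of these genes, both starts of Greb1 included, and in 0.0639% of 32851 mouse promoter windows of this length. The half-site GGTCA, searched on both strands, was found in 35.2% of all windows. Prap1 held 2 half-sites, at 63 to 59 and 55 to 51 bases before the start, in the capitals of its sequence. They point away from each other with 3 bases between them, and this everted arrangement, TGACCNNNGGTCA, which was looked for only after the Prap1 sequence had been seen, was present in 0.0457% of all windows. Ltf held 1 half-site, 45 to 41 bases before the start, and the upstream start of Greb1 held 1, at 88 to 84 bases. The other start of Greb1 held 2, at 194 to 190 and 85 to 81 bases before it. The windows of Lcn2 and Muc1 held 0. Only exact matches within these windows were counted, and imperfect or more distant estrogen response elements were not searched for.

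Further motifs were searched on both strands in the same windows, and the E-box counts hold no overlap with the half-sites other than at Greb1. The AP-1 site TGANTCA was in 6.75% of all windows and in 0 of these. The half-site TGTTCT of progesterone and glucocorticoid receptors was in 16.1% of all windows and in 0 of these. The E-box CANNTG, the class of site that basic helix-loop-helix factors such as Hand2 bind, was in 66.2% of all windows, with 1 match each in Prap1 and Ltf, 3 in Muc1, 3 and 2 at the starts of Greb1 and 0 in Lcn2. The GC box GGGCGG was in 32.7% of all windows, with 2 matches in Muc1 and 1 in Lcn2, and the TATA box TATAAA, in 12.4%, was found in Muc1 alone of the 5 genes. These matches describe letters in short windows and were not linked to the signals.

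The epithelial reference genes were nearly level between the arrays. Krt8 had signals of 1704 and 1753 by its brightest probe set, a log2 ratio of 0.04, and its other probe sets gave 0.13 and 0.14. Cdh1, E-cadherin, had 746 and 856, a log2 ratio of 0.199. Epcam had 714 and 800, a log2 ratio of 0.16, but its dimmer probe set, with 162 and 297, gave 0.88. The summed signal of the 3 genes was 3164 in the control and 3409 in the Hand2-null pool, a log2 ratio of 0.11 or 1.08-fold.

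Set against that sum, the ratio of Prap1 was 7.00-fold above the ratio of the reference, that of Lcn2 4.34-fold, that of Greb1 2.62-fold, that of Ltf 2.60-fold and that of Muc1 1.02-fold. The bound for Clca1 came to 2.24-fold. Against the single reference probe set with the largest ratio, the dimmer one of Epcam, the log2 ratio was still higher by 2.04 for Prap1, by 1.35 for Lcn2, by 0.62 for Greb1, by 0.61 for Ltf and by 0.39 for Clca1, each by its brightest probe set, and for Muc1 the difference was -0.74. By the second measured probe sets the difference was 1.64 for Prap1 and 0.20 for Greb1, the latter close to the pooled SD of 0.19. By these values 5 of the 6 genes had a higher ratio than every reference probe set, and Muc1 did not. This is a description, since the 6 genes were chosen with their ratios known.

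A wider list of epithelial markers, which includes Krt8, Cdh1 and Epcam themselves, was nearly level in its median and its summed signal. Of 32 genes 28 were measured, 15 were higher and 13 lower, 0 by 2-fold in either direction, with a median log2 ratio of 0.03 and summed signals of 15810 and 16800. Among all measured genes 44.2% were higher, 1.99% by 2-fold or more, and 0.742% were at least 2-fold lower. The largest ratios of the epithelial list belonged to Krt19, a keratin shared with the mesothelium, at 0.96, the epithelial transcription factor Elf3 at 0.69, the desmosome protein Perp at 0.66 and the tight-junction protein Cldn4 at 0.46. The ratios of Prap1, Lcn2, Greb1, Ltf and Clca1 lay above all 28 of these markers and that of Muc1 above 16 of them. The sign of the list median turned to -0.02 with each array centred on its median, or with the probe sets whose suffix is _a_at, which match several transcripts of 1 gene, or _s_at or _x_at, which can match other genes, left out together. It stayed at 0.03 with only the _s_at and _x_at probe sets left out.

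Further genes of the uterine estrogen response came from a list of 40, of which 34 were on the array and 32 measured. Here 21 lay above the control and 11 below, 5 and 0 of them by 2-fold or more, with a median log2 ratio of 0.25, against -0.03 for all measured genes. Over all measured genes 44.2% lay above the control, 1.99% by 2-fold or more, and 0.742% lay at least 2-fold below. The list shares Krt19, Elf3 and Ehf with the epithelial markers, Krt19 also with the mesothelial markers, and Fos with the immediate-early genes. It shares Pgr with the stromal markers and the receptors, Lif with the gland markers, Muc4 with the mucins and Slc40a1 with the iron genes.

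Inhbb, the activin beta-B subunit, led that list, with 123 and 749 or 6.09-fold, and its dimmer probe set, under the floor in the control, gave a log2 ratio of at least 0.39. Gjb2, the gap junction protein connexin 26, had 37.5, under the floor, and 211, which is at least 3.29-fold higher. Ckb, the brain-type creatine kinase known as an estrogen-induced protein of the rodent uterus, had 1557 and 3714 or 2.39-fold. Cdkn1a, a cell cycle inhibitor, was 2.08-fold higher with a second probe set at a log2 ratio of 1.04, and Slc40a1, the iron exporter ferroportin, was 2.05-fold higher at 177 and 362. At the other end Myc, a growth-promoting transcription factor, had the lowest ratio at -0.71, and Igf1, a stromal growth factor for the epithelium, was at -0.66 by its brightest probe set and lower by its 3 others too. Thus members of the same response class stood on both sides of 0.

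The receptors themselves differed little. Esr1 had 3292 and 3235, a log2 ratio of -0.03, while its second probe set gave 0.42. Pgr, the progesterone receptor, had 2076 and 1791, a ratio of -0.21, a second probe set gave -0.203 and its dimmest, under the floor in the control, 0.16. Esr2 and the membrane receptor Gper1 were under the floor in both pools. Of 11 measured receptors and coregulators 3 were higher and 8 lower, 0 by 2-fold, from -0.31 for Pgrmc1, a membrane-associated progesterone receptor component, to 0.32 for the glucocorticoid receptor Nr3c1. Among all measured genes 44.2% were higher, 1.99% by 2-fold or more, and 0.742% were at least 2-fold lower.

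Genes known to be induced by progesterone were mixed. In all, 3 of 9 measured lay above the control and 6 below, at a median of -0.18. The share of all measured genes above the control was 44.2%, at a median of -0.03, so no direction is read from this count. Fst, the activin-binding follistatin, was lower at -1.68 and by its other probe set at -1.98, and the transcription factor Klf15 was lower at -1.15. The kinase Sgk1 was higher at 1.20. Lrp2, or megalin, an endocytic receptor that takes up lipocalin-2 among other ligands, was lower at -0.59 with a second probe set at -0.30.

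**Figure D3:**
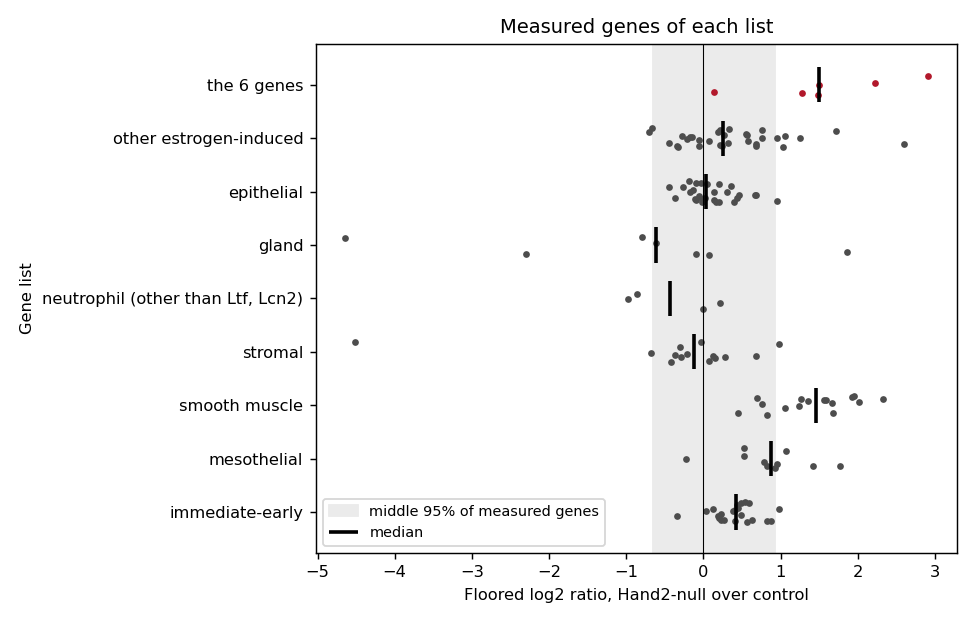
Floored log2 ratio of Hand2-null over control of each measured gene in 9 lists, 1 point per gene, with the list median as a black bar and the middle 95% of all measured genes, -0.66 to 0.93, as a grey band. Of the 6 genes 5 lie right of the band, the epithelial markers straddle 0 with a median of 0.03, and the smooth muscle markers have a median of 1.46.

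Close relatives of the 6 genes were mostly not measured. Of 7 other genes of the Clca family 5 were under the floor in both pools, Clca3a1 stood at -0.36, with 234 and 183, on a probe set that can cross-hybridize within the family, and Clca2 had 76.9 and 23.4, the second under the floor. Of 13 other lipocalins on the array 11 were under the floor in both pools, while Apod, apolipoprotein D, was at 0.51 and the retinol carrier Rbp4 at -0.35. Meltf, the other transferrin relative with a probe set, was under the floor in both pools.

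Among mucins and mucin-like proteins, the epithelial mucin Muc4 had 54.3, under the floor, and 103, a log2 ratio of at least 0.68. The adhesion molecule Mcam was at 0.43 and the endothelial sialomucin Emcn at -0.43, and the 10 others on the array apart from Muc1 were under the floor in both pools. Of 12 measured genes for enzymes that glycosylate or shed mucins and for partners of Muc1, 5 were higher and 7 lower, 0 by 2-fold. Among all measured genes 44.2% were higher, 1.99% by 2-fold or more, and 0.742% were at least 2-fold lower. Mmp14, a membrane-bound protease that can shed Muc1, was at 0.69, and the receptor Egfr at -0.61, with its dimmest measured probe set at 0.09.

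Ltf and Lcn2 are iron-binding or iron-withholding proteins, and iron genes and their receptors were read beside them. Of 9 measured genes 3 were higher and 6 lower, beside 44.2% higher over all measured genes, 1.99% by 2-fold or more. Slc40a1 at 1.03, already counted among the further estrogen-response genes, was the only one of the 9 past 2-fold. Slc22a17, a lipocalin-2 receptor, was at -0.07 and the transferrin receptor Tfrc at -0.29. Lrp1, an endocytic receptor of lactotransferrin, was at 0.38.

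Secreted antimicrobial and innate proteins did not move as a class in one direction. Apart from Ltf and Lcn2, 4 of 10 measured lay above the control and 6 below, at a median of -0.10. The share of all measured genes above the control was 44.2%, 1.99% by 2-fold or more. Among the 6 below were Hp at -0.91, S100a8 at -0.86 and S100a9 at -0.98. S100a8 and S100a9 are counted again among the neutrophil markers below. Cfb, complement factor B, was the only one of these 10 past 2-fold, with 86.0 and 189 or 2.20-fold. Wfdc2, a secreted epithelial protein with protease inhibitor domains, was at 0.36 and Slpi, another such inhibitor, at -0.02.

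Ltf and Lcn2 are also stored in the secondary granules of neutrophils, so neutrophil markers were read. Of 15 others on the array 11 were under the floor in both pools, among them the granule genes Camp at 0.665 and 4.64, Ngp at 5.36 and 30.2, Mmp8 at 1.39 and 5.20, Elane at 20.2 and 19.3 and Mpo at 32.2 and 58.6. S100a8 and S100a9, abundant calgranulins of neutrophils, were lower, at -0.86 and -0.98. Mmp9 had 91.9 and 106, and Csf3r had 64.9, close to the floor, and 21.5, under it. The summed signal of the 15 was 613 in the control and 493 in the Hand2-null pool. Without S100a8 and S100a9, left out after their values were seen, the sum of the other 13 was 284 and 317. Since 11 of these 13 were under the floor in both pools, no direction is read from that sum. The part of neutrophils in the Ltf and Lcn2 signals was not tested.

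Gland markers differed in both directions. Spink1, a trypsin inhibitor, was at least 25.0-fold lower, Ttr, the thyroid hormone carrier, was lower at -2.30, and Foxa2, the gland transcription factor, was lower at -0.79 with signals of 124 and 71.9. Cxcl15, a chemokine of the glands, was at -0.62 with a second probe set at 0.10. Spink12 was at least 3.63-fold higher. Prss28 and Prss29 encode implantation serine proteases. Prss28, with 34.9 and 2.22, and the brightest Prss29 probe set, with 62.6 and 12.0, reached the floor in neither pool. A further Prss29 probe set, 1420282_s_at, had 65.7 in the control, just above the floor, and 2.38 in the Hand2-null pool, under it. No fold is read from it. Lif, the gland cytokine that estrogen induces for implantation, had 115 and 121. Of 7 measured gland markers 5 were lower and 2 higher, with summed signals over the 9 on the array of 6834 and 4554. Among all measured genes 44.2% were higher.

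Markers of smooth muscle and of the mesothelium were mostly higher in the Hand2-null pool, and stromal markers were mixed. All 16 of 16 smooth muscle markers lay above the control, 12 by 2-fold or more, at a median log2 ratio of 1.46 and with summed signals of 20393 and 46179. The shares over all measured genes were 44.2% above the control and 1.99% at least 2-fold above. Cnn1 was at 2.02, Jph2 at 1.95 and Oxtr at no less than 1.93. Of 10 mesothelial markers 9 were higher, with a median of 0.88 and summed signals of 1706 and 2964, led by Gpm6a at 1.77 and Upk3b at 1.42. Stromal markers had a median of -0.12 over 14 genes, with Col1a1 at 0.98 and Hoxa11 at -0.68. That list counts the deleted gene Hand2 itself, at -4.52 or lower, which pulls the median down. Immediate-early genes, whose transcripts change within minutes when tissue is handled, lay above the control in 21 of 22 cases, at a median of 0.42, with Fosb at 0.98 and Atf3 at 0.88. The part of these cell types and of cell handling in the values of the 6 genes was not tested.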

How the data were processed

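Transcripts of uterine stromal cells were measured on 2 Affymetrix mouse arrays, 1 per genotype, from RNA pooled by genotype. The deposited values are array intensity on a linear scale. Per the submitters' processing notes, the authors used MAS5 and Affymetrix Expression Console, version 1. Without the lowest and highest 2% of values the mean was 150.001 in each array, so each had been scaled to one mean. A genome build and detection calls are not given in the sources used here. Because MAS5 subtracts a mismatch signal, ratios of dim probe sets are unsteady, and the number of arrays limits the precision.

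The 64 control probe sets among 45101 did not enter. Of the others, 34945 had 1 gene symbol in the platform annotation, 932 several and 9160 none listed. No probe set of several genes held one of the 6 genes. In lists and counts each gene was read from its brightest probe set, by mean log2 signal. Where 1 array was under the floor and the bound went against the signals, no direction was counted. Genes were called at 2-fold. The genes and lists were chosen with earlier results of these data known. Named were the 6 genes, the 3 reference genes, Hand2, Esr1, Pgr, the neighbours of each of the 6 in the order of ratios, up to 4 genes of each list with the largest ratio and any measured gene of lists of at most 16 symbols. Myc, Igf1, Esr2, Gper1, Wfdc2, Slpi, Hp, Meltf, Prss28, Prss29, Camp, Ngp, Mmp8, Elane, Mpo, Mmp9 and Csf3r were named after their values were seen. Alternatives were median centring, quantile normalization, no floor or one at the 50th or 75th percentile, adding the floor to each signal, averaging a gene's probe sets, dropping _a_at, _s_at and _x_at probe sets, or, added after seeing the data, only the _s_at and _x_at ones, which can match other genes, and thresholds of 1.5-fold and 3-fold. The procedure was tested on simulated arrays. Promoter sequences are from RefSeq, build GRCm38.p6. Python 3.11.15, numpy 2.4.6, pandas 2.3.3 and matplotlib 3.10.9 were used.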

Additional observations from a re-analysis of the deposited data

How the results depend on the processing

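With 1 array per genotype no replicate could be left out, and a difference between mice cannot be separated from one between genotypes. The 6 genes stayed higher in the Hand2-null array under each alternative in which they were measured. The count at least 2-fold higher was 5 under the other scalings, the lower floors, the pseudo-signal and the mean over probe sets, 4 with the floor at the 75th percentile, where Clca1 was not measured, and 4 without the _a_at, _s_at and _x_at probe sets, where Lcn2, which has only an _a_at probe set, was not measured. Leaving out only the _s_at and _x_at probe sets, chosen after seeing the data, it was 5. At 3-fold it was 2, beside 0.472% of measured genes, and 0 were lower under any alternative. The median log2 ratio of the 6 moved from 1.49 to 1.74 with a 50th-percentile floor and also with no floor, and to 1.26 with a pseudo-signal. Single ratios ranged from 2.22 to 2.91 for Prap1, 1.87 to 2.22 for Lcn2, 1.02 to 1.499 for Greb1, 1.39 to 1.497 for Ltf, 1.11 to 1.98 for Clca1 and 0.09 to 0.14 for Muc1. The share of all measured genes at least 2-fold higher was 1.72% with median centring and 1.93% with quantile normalization. With the floor at the 50th percentile it was 2.52%, at the 75th 1.56% and with no floor 9.05%. It was 1.13% with the pseudo-signal and 1.88% with the mean over probe sets. Without the _a_at, _s_at and _x_at probe sets it was 2.09%, and without only the _s_at and _x_at ones 2%. Nothing is read from these shares, since the 6 genes were chosen with ratios known. The summed reference lay between 0.05 and 0.199, the latter from Cdh1 alone, since Krt8 and Epcam have only _a_at and _x_at probe sets. It was 0.11 without the _s_at and _x_at probe sets alone. A mean over probe sets has no such sum and was not run for it. No paired analysis was possible because each group has 1 array.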
